A study of Mus musculus with 6 samples.

Results

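The retinoid receptors and the COUP-TF factors are nuclear receptors, transcription factors that many cells use to read retinoic acid and related signals. Their RNA was followed here in mouse embryonic eye tissue through 8 genes, Rara, Rarb and Rarg, Rxra, Rxrb and Rxrg, and Nr2f1 and Nr2f2. The genes were chosen by name. They are 8 of the 18193 genes that a probe set of the array names alone, and all 8 had at least 1 such probe set, 16 in all. The series compares 3 arrays of an albino genotype with 3 arrays of a pigmented genotype, which the labels call the control. All arrays hold tissue that the labels call retinal pigment epithelium (RPE), a sheet of cells that lies against the neural retina and makes melanin in pigmented animals, from embryos at embryonic day 13.5. Each array holds RNA of 3 to 4 littermates pooled together, and the pools of a genotype are labelled as separate biological samples. The mutated gene and the strains are not given in the sources used here, so a difference between the genotypes and a difference between strains cannot be told apart.

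Retinoic acid receptors (RARs) bind retinoic acid and sit on DNA as a pair with a retinoid X receptor (RXR). Without ligand the pair holds corepressors on its target genes, and with ligand it recruits coactivators. RXRs also pair with thyroid hormone, vitamin D and fatty acid receptors. The COUP transcription factors Nr2f1 and Nr2f2 bind overlapping DNA sites and can counteract retinoid receptors there. In the mouse eye, RARs act mainly in the mesenchyme around the optic cup, while the COUP-TF genes are needed together for the optic vesicle to form RPE.

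Rarb is itself a classic target of the receptors, because a retinoic acid response element lies just before one of its start sites. That element and its counterpart at Cyp26a1, a retinoic acid breakdown gene, are shown because the RNA of both genes is described below, and a stretch before Rxrg is shown because Rxrg differed most between the genotypes. All are RefSeq sequences of mouse build GRCm38.p6, read in the direction of transcription and ending at the base before the start site. The Rarb stretch is chr14:16575477-16575726 on the minus strand, the Cyp26a1 stretch is chr19:37697658-37697807 on the plus strand, and the Rxrg stretch, before the second of the Rxrg start sites in the table, is chr1:167618115-167618264 on the plus strand. Capitals mark the receptor hexamers: a pair spaced by 5 letters (a direct repeat called DR5) in Rarb and, on the opposite strand, in Cyp26a1, and a single AGGTCA in Rxrg.
Rarb: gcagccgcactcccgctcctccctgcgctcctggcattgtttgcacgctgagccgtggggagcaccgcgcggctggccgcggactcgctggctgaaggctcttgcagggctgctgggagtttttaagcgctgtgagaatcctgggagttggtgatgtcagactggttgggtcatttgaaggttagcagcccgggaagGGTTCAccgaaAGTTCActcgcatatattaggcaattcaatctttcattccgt
Cyp26a1: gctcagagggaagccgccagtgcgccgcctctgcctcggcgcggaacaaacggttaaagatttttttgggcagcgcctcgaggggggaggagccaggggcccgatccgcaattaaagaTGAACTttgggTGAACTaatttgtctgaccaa
Rxrg: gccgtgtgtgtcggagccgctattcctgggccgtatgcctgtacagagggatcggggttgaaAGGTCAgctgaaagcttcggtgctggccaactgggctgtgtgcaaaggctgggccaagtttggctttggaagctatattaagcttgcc

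The Rarb repeat lies at positions -53 to -37 from the start site and the Cyp26a1 repeat at -32 to -16. The search took any pair drawn from the AGGTCA hexamer, the AGTTCA hexamer, the GGGTCA hexamer and the GGTTCA hexamer, in the same direction with 5 letters between them, on both strands, from 250 bases before to 50 after each start site. Such a repeat was found in 32 of 32851 windows, or 0.0974%. Among the 16 windows of the 8 receptor genes it was found in 1, the Rarb window. The same hexamers spaced by 1 letter (DR1, 0.222% of all windows) or by 2 letters (DR2, 0.268%) were found in 0 of the 16 windows. A single AGGTCA, which can be part of any of these repeats, was found in 4 of the 16, those of Rara, Rarg, Rxra and Rxrg, and in 16.3% of all windows. These matches describe letters and say nothing of binding in this tissue.

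Levels are log2 values after RMA, so a difference of 1 is a doubling, and every value is relative to the other probe sets of its array. Different probe sets bind their transcripts with different strength, so levels are compared between arrays and not between genes. A gene is represented by the probe set with the highest mean over the 6 arrays, and probe sets with a mean below 5 were described but not tested. By this rule 13 of the 16 receptor probe sets were tested, with at least 1 for each gene. Just above 5 stood an Nr2f2 probe set (1444229_at, mean 5.37) and the Rara probe set (mean 5.445), and just below it another Nr2f2 probe set (1431237_at, mean 4.58).

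Array medians lay between 5.19 and 5.22, and correlations between arrays over all probe sets were 0.977 to 0.997. The main split in the table was not genotype: principal component 1, with 68.9% of the variance, set the replicate 1 arrays of both genotypes apart from the other 4 arrays. Over all tested probe sets, replicate 1 minus the others ran from -0.775 at the 5th percentile to 0.562 at the 95th. The median of that difference was 0.14. The RPE label was checked with 14 RPE marker genes, of which 12 passed the filter, while Rpe65 and Rgr, which act in the visual cycle, did not. Of these 12, 11 were lower and 1 was higher in albino pools, with a median difference of -0.14, and 0 passed limma's adjusted threshold. Over all tested probe sets, 63.5% were higher there. The list mean was 9.67 to 9.86 in albino pools and 9.82 to 10.06 in pigmented pools. Ttr, which encodes the carrier protein transthyretin, gave -0.56 (SE 0.12, limma adjusted p = 0.644), and Trpm3, an ion channel gene, gave -0.32 (SE 0.09, limma adjusted p = 0.871). Neither overlapped between the genotypes, nor did the markers Mitf and Kcnj13, also lower in albino pools. Of all tested probe sets, 10.8% did not overlap (3.44% with albino lower). Skeletal muscle and blood genes were also measured on every array, so the levels below are those of mixed tissue. Lens markers averaged 5.35 on albino replicate 3, while albino replicates 1 and 2 stood at 7.84 and 8.12 and the pigmented arrays at 7.84 to 8.16. On albino replicate 3 the lens crystallin genes Cryba1, Crygd and Cryaa read 3.31, 3.47 and 4.48, all below 5, and Cryab, which other tissues also express, read 9.87. In such tissue, more cells of a type and more RNA per cell cannot be told apart.

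None of the 8 receptor genes passed the threshold of 0.05 on limma's adjusted p, and 0% of the 23591 probe sets tested did. At an unadjusted p under 0.05 stood 1 of the 8 genes, Rxrg, with 4.68% of all tested probe sets at that level (3.22% higher and 1.46% lower in albino pools). Higher values in albino pools were found for 4 genes (Rxrb, Rxrg, Nr2f1 and Nr2f2) and lower values for the other 4 (Rara, Rarb, Rarg and Rxra), with the sign of Rxrb turning after median centring of the arrays (-0.033). The median over the 8 genes was 0.0050, against 0.04 over the 12098 genes tested. Of all tested probe sets, 63.5% were higher in albino pools.

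**Figure D1:**
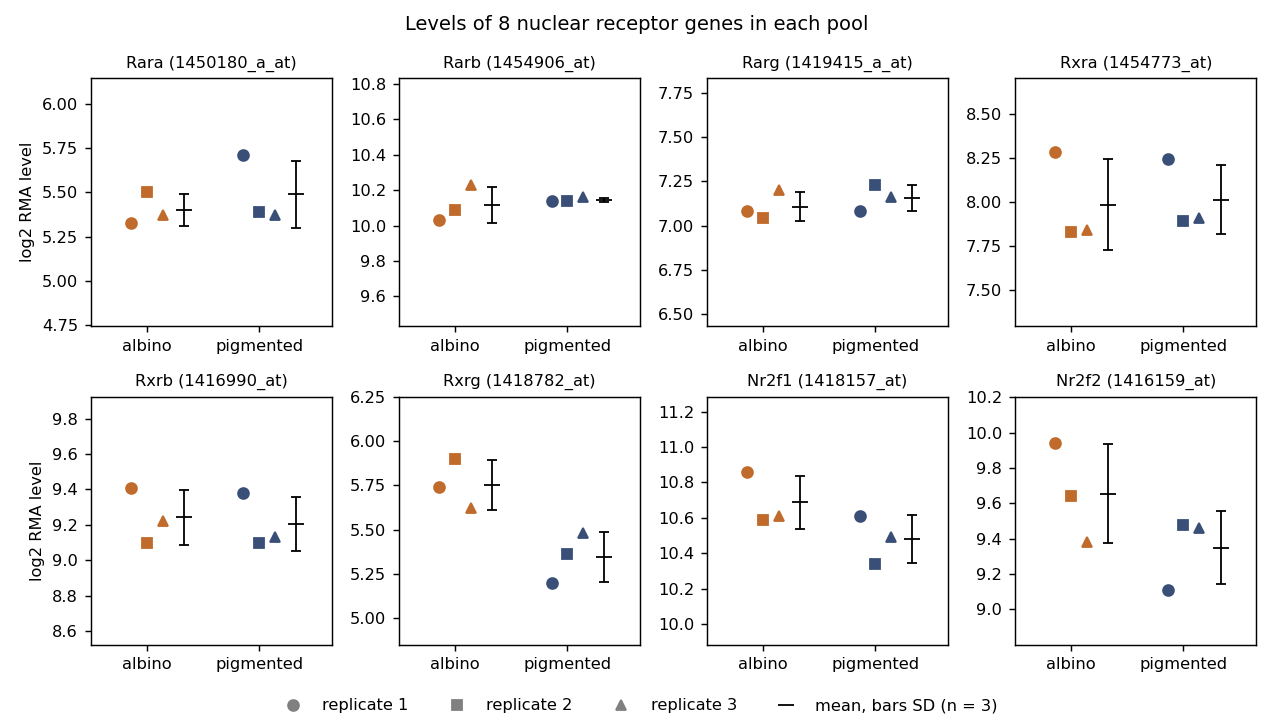
Log2 RMA levels of the 8 receptor genes on each array, 1 panel a gene by its representing probe set, albino pools left and pigmented pools right. Symbols are replicate numbers, and the bar beside each group is its mean with the SD (n = 3); every panel spans the same log2 range. The genotypes do not overlap for Rxrg alone, and the replicate 1 arrays stand highest for Rxra, Rxrb and Nr2f1 in both genotypes.

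The RAR genes were close to level between the genotypes. Rarb, which encodes the receptor whose own gene carries the DR5 element, read 10.03, 10.09 and 10.23 in albino pools and 10.14, 10.14 and 10.16 in pigmented pools. The albino values lie on both sides of the narrow pigmented range, so the groups overlap. The difference was -0.03 (SE 0.09, 95% confidence interval -0.25 to 0.19, limma adjusted p = 0.999), an interval that runs from 0.84-fold to 1.14-fold.

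Rara, which encodes the broadly expressed receptor RAR alpha, read 5.33, 5.50 and 5.37 in albino pools and 5.71, 5.39 and 5.37 in pigmented pools. Pigmented replicate 1 alone is high, and the other 5 values lie between 5.33 and 5.50. The difference was -0.09 (SE 0.12), and without pigmented replicate 1 its sign turned (0.02).

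Rarg, which encodes RAR gamma, a receptor known from mesenchyme and skin, read 7.08, 7.04 and 7.20 in albino pools and 7.08, 7.23 and 7.16 in pigmented pools. The groups overlap throughout. Its difference was -0.05 (SE 0.09, 95% confidence interval -0.28 to 0.18). The second Rarg probe set (1419416_a_at, mean 4.48) was below the filter and gave -0.05 as well.

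Among the RXR genes, Rxra and Rxrb followed the replicate number more than the genotype. Rxra, which encodes the main RXR of most embryonic tissues, read 8.28, 7.83 and 7.84 in albino pools and 8.24, 7.89 and 7.91 in pigmented pools. Both replicate 1 arrays are high, and the other 4 are close together in both genotypes. Replicate 1 arrays averaged 8.26 and the others 7.87, a gap of 0.39, while the difference between genotypes was -0.03 (SE 0.17). Without albino replicate 1 the genotype difference was -0.18, and without pigmented replicate 1 it was 0.083.

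The second Rxra probe set (1425762_a_at) gave -0.12 (SE 0.14), with 6.77, 6.35 and 6.34 in albino pools and 6.65, 6.61 and 6.55 in pigmented pools. Albino replicate 1 is the highest array there too. The remaining Rxra probe set (1430497_at, mean 3.675) was below the filter and had the opposite replicate pattern, with replicate 1 lower by 0.36. Rxrb, which encodes RXR beta, read 9.41, 9.10 and 9.22 in albino pools and 9.38, 9.10 and 9.13 in pigmented pools. Again both replicate 1 arrays are the highest, and they exceed the others by 0.26 on average. The Rxrb difference was 0.04 (SE 0.13, 95% confidence interval -0.26 to 0.34).

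Rxrg had the largest difference of the 8 genes and the smallest p. It encodes RXR gamma, the RXR with the narrowest expression, known from skeletal muscle, heart and parts of the nervous system. Rxrg read 5.74, 5.90 and 5.62 in albino pools and 5.20, 5.36 and 5.48 in pigmented pools. Every albino value lies above every pigmented value, and the smallest gap is between albino replicate 3 and pigmented replicate 3. Albino pools averaged 5.75 ± 0.14 and pigmented pools 5.35 ± 0.14 (SD, n = 3 each). The difference of 0.41 (SE 0.12) is 1.33-fold, with a 95% confidence interval of 1.09-fold to 1.62-fold. Before adjustment the limma p was 0.0125, and after adjustment over all probe sets it was 0.886, so the difference did not pass.

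Such a separation was not rare in the table. Genotypes did not overlap at 1 of the 13 tested receptor probe sets, against 10.8% of all tested probe sets (7.39% with albino higher and 3.44% with albino lower). Between arrays of the same number, Rxrg differed by 0.54, 0.54 and 0.14. With the replicate number as a block the limma adjusted p was 0.204, and 0 of the 8 genes passed, as did 0% of all probe sets. The Rxrg levels of both genotypes lie near the filter of 5.

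Skeletal muscle markers, like Rxrg, were higher in albino pools. All 12 of 12 muscle markers passed the filter and were higher in albino pools, with a median difference of 1.48. Among them Pax7 passed only through the albino pools (mean 5.70), since its pigmented mean was 4.44. Of all tested probe sets, 63.5% were higher in albino pools, and the muscle list was chosen with earlier results of these data known. The list mean was 7.90 to 8.62 in albino pools and 6.55 to 7.42 in pigmented pools (log2 levels). Albino replicate 3 was the lowest of its genotype and pigmented replicate 3 the highest of its genotype for both the muscle list and Rxrg. Pigmented replicates 1 and 2 stood in opposite order, at 6.86 and 6.55 for the muscle list and 5.20 and 5.36 for Rxrg. The part of muscle RNA in the Rxrg difference was not tested.

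**Figure D2:**
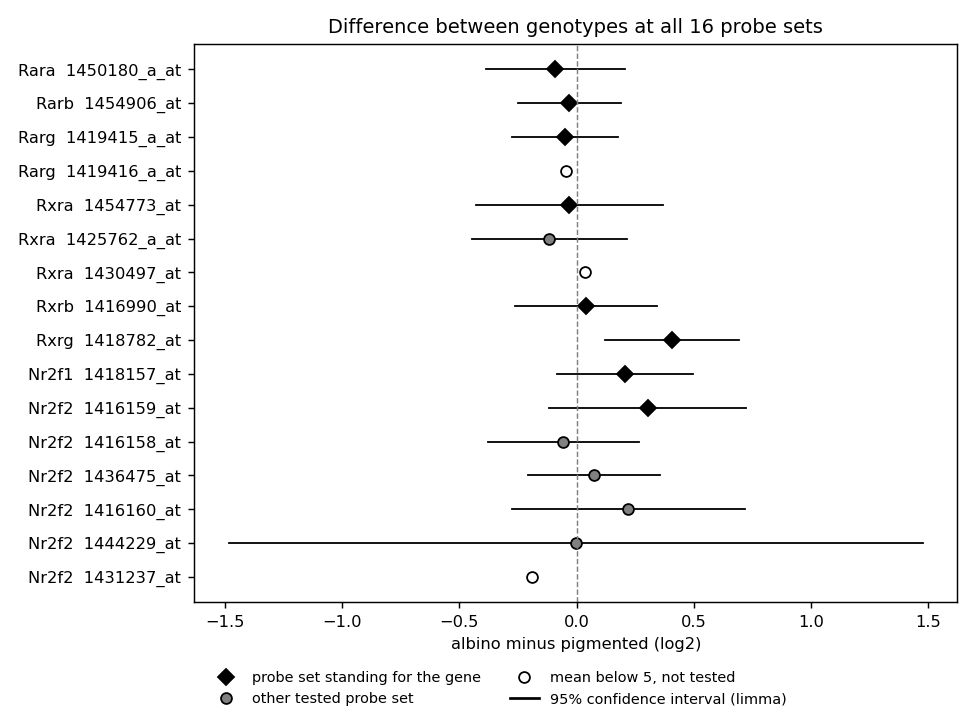
Albino minus pigmented difference (log2) at all 16 probe sets of the 8 genes, grouped by gene. Diamonds stand for the gene, filled circles are other tested probe sets, open circles have a mean below 5, and lines are limma 95% confidence intervals. Only the Rxrg interval, 0.12 to 0.69, lies wholly on 1 side of 0.

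The COUP-TF genes both read higher in albino pools, without passing the threshold. Nr2f1, which encodes COUP-TFI, read 10.86, 10.59 and 10.61 in albino pools and 10.61, 10.34 and 10.49 in pigmented pools. The groups overlap, since albino replicate 2 (10.59) lies below pigmented replicate 1 (10.61), which albino replicate 3 equals. Albino pools averaged 10.69 ± 0.15 and pigmented pools 10.48 ± 0.14 (SD, n = 3 each), which is a difference of 0.21 (SE 0.12, 95% confidence interval -0.08 to 0.50, limma adjusted p = 0.999). It was 0.12 without albino replicate 1, 0.137 without pigmented replicate 2 and 0.133 after median centring.

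Replicate 1 was the highest array of each genotype for Nr2f1 too, and the replicate 1 arrays exceeded the others by 0.23 on average. Within each replicate number the albino array was the higher for Nr2f1, by 0.25, 0.25 and 0.12. With the replicate block the SE was 0.061 and the unadjusted limma p 0.0187, a level that 18% of all tested probe sets reached in that fit, and the adjusted p was 0.222. The mix of sexes also differed between the pools. Y-linked genes averaged 7.47, 7.06 and 7.99 in albino pools, against 7.39, 2.32 and 5.98 in pigmented pools, and with that mean as a covariate the Nr2f1 difference was 0.095.

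Nr2f2 encodes COUP-TFII, which is also known from mesenchyme, veins and lymphatic vessels. Its representing probe set (1416159_at) read 9.94, 9.64 and 9.38 in albino pools and 9.11, 9.48 and 9.46 in pigmented pools. The groups overlap, since albino replicate 3 lies below pigmented replicates 2 and 3. The difference of 0.30 (SE 0.18, 95% confidence interval -0.12 to 0.72) came mostly from the replicate 1 arrays. Between arrays of the same number it was 0.83, 0.16 and -0.08, and without both replicate 1 arrays it was 0.04 (SE 0.10). It was 0.16 without albino replicate 1 alone and 0.183 without pigmented replicate 1 alone.

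The Nr2f2 probe sets differed among themselves. Of 6 probe sets, 3 were higher and 3 lower in albino pools, from -0.19 to 0.30. Tested sets 1416160_at, 1436475_at, 1444229_at and 1416158_at gave 0.22 (SE 0.21), 0.07 (SE 0.12), -0.0033 (SE 0.62) and -0.06 (SE 0.13). Between arrays of the same number, 1416160_at differed by 0.43, 0.34 and -0.11, so like 1416159_at it was higher in albino for replicates 1 and 2 and lower for replicate 3. The mean over all 6 gave 0.058 (SE 0.13). In the array annotation, 1416158_at, 1416159_at and 1416160_at come from the same source sequence, yet they gave -0.06, 0.30 and 0.22.

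Nr2f2 probe sets also parted on the replicate number. Probe set 1444229_at read 4.38, 5.55 and 6.17 in albino pools and 4.22, 6.14 and 5.75 in pigmented pools. Both replicate 1 arrays are far below the rest, by 1.60 on average. By contrast, replicate 1 minus the others was -0.46 for 1416160_at, -0.25 for 1416158_at, 0.035 for 1416159_at, 0.15 for 1436475_at and 0.455 for 1431237_at. No single Nr2f2 level stands for all of its probe sets.

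**Figure D3:**
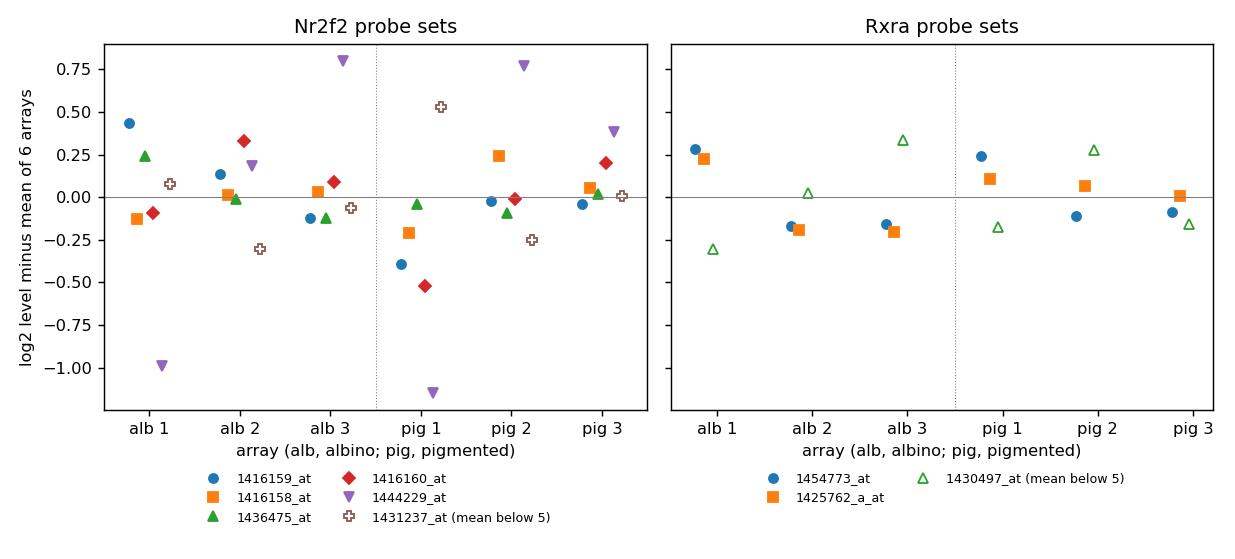
Log2 level minus the probe set's own mean over the 6 arrays, for the 6 Nr2f2 probe sets (left) and the 3 Rxra probe sets (right); albino arrays stand left of the dotted line and open symbols have a mean below 5. Nr2f2 probe set 1444229_at lies far below its mean on both replicate 1 arrays, where 1431237_at lies above its mean, and the tested Rxra probe sets lie above theirs there.

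Markers of mesenchyme and vessels were split nearly evenly between the directions, while most neural retina markers were lower in albino pools. An even split is not the background here, since 63.5% of all tested probe sets were higher in albino pools. Periocular mesenchyme markers had 5 of 11 tested genes higher and 6 lower in albino pools, with list means of 10.76 to 10.91 on albino and 10.75 to 10.95 on pigmented arrays. Endothelial markers had 4 of 8 higher and 4 lower, with list means of 7.85 to 7.97 on albino and 7.87 to 7.97 on pigmented arrays. Macrophage markers had 6 of 8 higher and 2 lower, not far from the 63.5% of all tested probe sets. Their list means did not overlap, at 6.73 to 6.76 on albino and 6.55 to 6.59 on pigmented arrays. Among all tested single probe sets, 10.8% did not overlap. Cd68, counted among the 6, passed the filter only through the albino pools (mean 5.12), since its pigmented mean was 4.99. Neural retina markers, from a tissue in which COUP-TFs also act, had 1 of 9 tested genes higher and 8 lower in albino pools. Their list means were 6.73 to 7.28 on albino and 6.96 to 7.52 on pigmented arrays. The muscle markers given beside Rxrg were higher in the albino pools, like Nr2f1 and Nr2f2, and 11 of 12 RPE markers were lower there, and the part of any of these tissues in the COUP-TF values was not tested.

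The genes whose array pattern lay nearest to a receptor were sought for the 2 receptor genes that varied most over the arrays, Nr2f2 and Rxrg. Likeness was the root mean square difference between log2 profiles, each centred on its own mean, over 6 arrays and 12098 genes. Nearest to Rxrg were Ebf1, which encodes a transcription factor (0.033), Hs6st2, a heparan sulfate sulfotransferase gene (0.060), and Rps6kb2, an S6 kinase gene (0.067). Ebf1 read 8.48, 8.57 and 8.36 in albino pools and 7.97, 8.07 and 8.24 in pigmented pools, a likeness to Rxrg that its selection fixed. Nearest to Nr2f2 were Ap4e1, an adaptor complex gene (0.072), Nav3, a neuron navigator gene (0.072), and N4bp2l1 (0.086). These are neighbours of its representing probe set (1416159_at) alone, and its other probe sets had other patterns.

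Genes that make, carry and break down retinoic acid were set beside the receptors. Of 7 tested synthesis and breakdown genes, 3 were higher and 4 lower in albino pools, and none passed limma's adjusted threshold. At an unadjusted p under 0.05 stood 1 of them, with 4.68% of all tested probe sets at that level. Cyp26b1, which encodes a retinoic acid hydroxylase, read 6.68, 7.15 and 7.15 in albino pools and 7.30, 7.63 and 7.37 in pigmented pools. All albino values are lower, as at 3.44% of all tested probe sets, with a difference of -0.44 (SE 0.17, limma adjusted p = 0.999).

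Cyp26a1, the other DR5-bearing gene shown above, read 6.86, 6.53 and 6.84 in albino pools and 7.10, 6.77 and 6.81 in pigmented pools. These overlap, and the difference was -0.15 (SE 0.14). Neither DR5 gene differed past the threshold, at -0.03 for Rarb and -0.15 for Cyp26a1.

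The retinaldehyde dehydrogenase genes, which make retinoic acid, gave 0.36 (SE 0.17) for Aldh1a2, known from mesenchyme, -0.29 (SE 0.54) for Aldh1a1, known from dorsal retina, and -0.13 (SE 0.09) for Aldh1a3, known from ventral retina and RPE. Aldh1a1 varied most, from 8.80 on pigmented replicate 1 to 10.89 on pigmented replicate 3. Dhrs3, which encodes a retinaldehyde reductase, gave 0.04 (SE 0.17).

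Of the carrier genes, 3 of 5 tested were higher and 2 lower in albino pools. Crabp2, which encodes the binding protein that hands retinoic acid to RARs, read 10.35, 10.09 and 10.11 in albino pools and 10.00, 9.91 and 9.73 in pigmented pools. Its groups do not overlap, as at 10.8% of all tested probe sets, and the difference of 0.30 (SE 0.12, limma adjusted p = 0.999) did not pass. Crabp1 gave 0.10 (SE 0.10), Fabp5 -0.08 (SE 0.10) and the retinol uptake receptor gene Stra6 -0.07 (SE 0.09).

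Retinoic acid response genes, a list that shares Rarb, Cyp26a1, Cyp26b1, Dhrs3, Crabp2 and Stra6 with the groups above, had 4 of 11 tested members higher and 7 lower, with a median of -0.07. Of the 11, 0 passed after adjustment and 2 stood at an unadjusted p under 0.05, Crabp2 higher and Cyp26b1 lower. The share of all tested probe sets at that level was 4.68% (3.22% higher and 1.46% lower in albino pools). Tgm2, the transglutaminase gene, gave 0.15 (SE 0.11).

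Partner and cofactor genes of the receptors were nearly level. Corepressors and coactivators had 10 of 13 tested members higher and 3 lower in albino pools, with a median of 0.04, the same as over all genes. They ranged from -0.05 to 0.20, the highest being the coactivator gene Ncoa1 (SE 0.11), followed by Hdac3 (0.13) and Sin3a (0.11). Of 10 other receptor genes whose proteins pair with RXR, 6 were below the filter, and the 4 tested were led by the thyroid hormone receptor gene Thra at 0.15 (SE 0.11), with Nr4a1 at -0.12 and Ppard at 0.07.

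Relatives of the COUP-TFs in the same nuclear receptor subfamily had 1 of 4 tested members higher and 3 lower. Hnf4a, a liver and gut factor gene that lay next to the filter, read 5.06, 4.83 and 4.98 in albino pools and 5.59, 5.41 and 5.17 in pigmented pools. All its albino values are lower, as at 3.44% of all tested probe sets, by -0.43 on average (SE 0.13, limma adjusted p = 0.926). Its albino mean was 4.96 and its pigmented mean 5.39, so Hnf4a passed the filter only through the pigmented arrays. Nr2f6, the closest relative, gave -0.08 (SE 0.11) and Nr2c1 0.09 (SE 0.14).

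**Figure D4:**
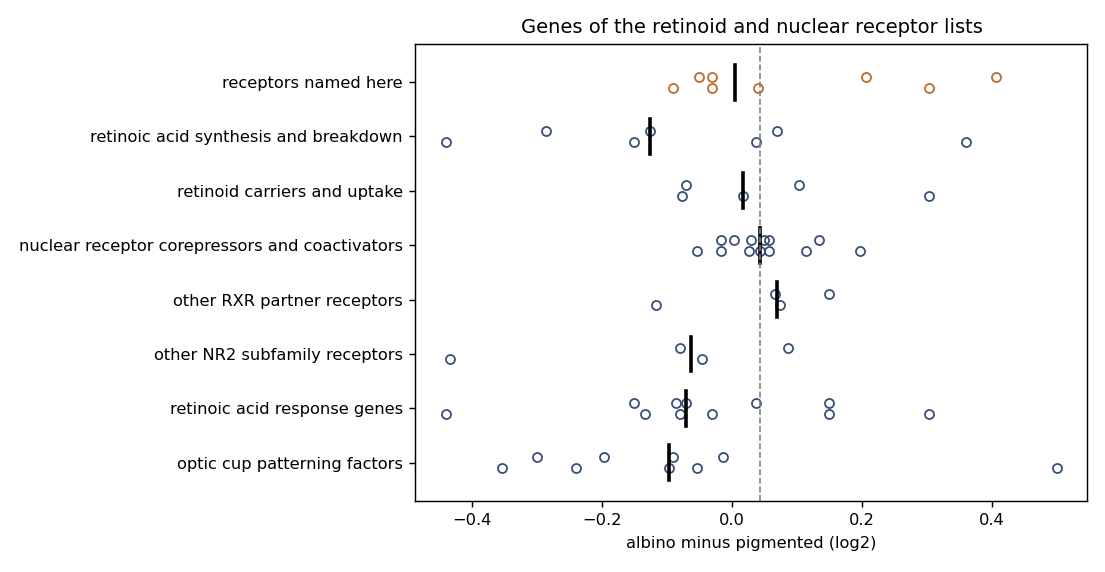
Albino minus pigmented difference (log2) of each tested gene in the 8 receptors and in 7 lists of related genes; black bars are medians and the dashed line is the median of all tested genes (0.04). The outermost points are Cyp26b1 (-0.44, in both lists that hold it) and Hnf4a (-0.43) on the lower side and Rxrg (0.41) and Bmp4 (0.50) on the higher side.

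Factors that pattern the optic cup, where COUP-TFs act in the mouse, had 1 of 9 tested members higher and 8 lower in albino pools, and none passed. The share higher was 63.5% over all tested probe sets. At an unadjusted limma p under 0.05 stood 1 higher and 2 lower, with 4.68% of all tested probe sets at that level. Pax6 and Otx2, which take part in the choice between retina and RPE, gave -0.01 (SE 0.12) and -0.09 (SE 0.15), and Mitf, the RPE master regulator gene, gave -0.10 (SE 0.08). Bmp4, which encodes a dorsal signal, read 8.52, 8.30 and 8.30 in albino pools and 7.97, 7.81 and 7.84 in pigmented pools. All its albino values are higher, by 0.50 (SE 0.11, limma adjusted p = 0.595). The ventral factor genes Vax1 and Vax2 lay lower, at -0.35 (SE 0.11) and -0.30 (SE 0.11), and their groups do not overlap either. Nor do those of Mitf. Such a separation was found at 10.8% of all tested probe sets (7.39% with albino higher and 3.44% with albino lower). None of the 9 factors passed after adjustment over all probe sets.

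**Figure D5:**
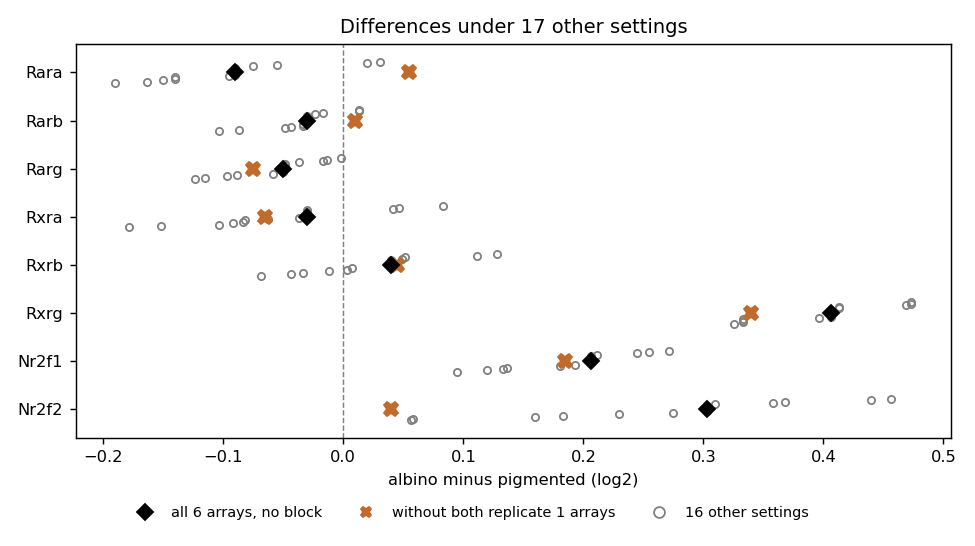
Albino minus pigmented difference (log2) of the 8 receptor genes with all 6 arrays and no block (diamonds), without both replicate 1 arrays (crosses) and under 16 other settings (circles). Rxrg stays between 0.33 and 0.47, Nr2f2 ranges from 0.04 to 0.46, and Rara, Rarb, Rxra and Rxrb fall on both sides of 0.

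Across 17 other settings of scaling, filter, probe set choice, pairing and arrays, Rxrg, Nr2f1 and Nr2f2 kept their positive sign and Rarg its negative sign in all 17. Several settings could not turn a sign. The replicate block, the replicate 1 term, the variance trend and the change of filter leave the difference itself unchanged and alter only its error. Leaving out or weighting arrays cannot turn Rxrg, whose groups do not overlap. Rxrg stood at an unadjusted p under 0.05 in 16 of the 17, the exception being the fit without albino replicate 2, where its difference was 0.33. The limma adjusted p of Rxrg was 0.119 to 1 over these settings. Of the 8 genes, 0 passed the adjusted threshold under any of the 17.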

How the data were processed

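Biotinylated cRNA was prepared from 100 ng of total RNA and hybridised to 3' expression arrays, per the labels' protocols. The authors deposited log2 RMA values, from Affymetrix Expression Console 1.1 per the submitters' processing notes. RMA makes the arrays' distributions alike, so shared changes are removed. Gene names of the 45101 probe sets came from the platform annotation (34945 with 1 gene, 932 with several, 9160 with none in it, 64 controls). Controls and means below 5 were left out, which kept 23591. Genotypes were compared as albino minus pigmented with limma 3.58.1 in R 4.3.3 (lmFit, eBayes, two-sided, Benjamini-Hochberg over all tested probe sets, threshold 0.05), which was tested on simulated data. The simulated arrays had no shared replicate effect and held larger changes than the receptor genes showed, so that test does not cover these features. All p-values come from limma. The number of arrays limits the precision.

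Both genotypes carry replicate numbers 1, 2 and 3 in the labels. Deviations from genotype means correlated at 0.863, 0.687 and 0.448 between arrays of the same number. The numbers were read as pairing the arrays, which rests on these values alone. Swapping numbers 2 and 3 gave higher values, 0.693 (albino 2, pigmented 3) and 0.546 (albino 3, pigmented 2). The values thus link the replicate 1 arrays but do not favour same-number pairs for numbers 2 and 3. For those numbers, the block and the same-number differences follow the labels only. The fit without a block is the main one and gives the printed errors, intervals and p-values unless another is named. The 8 genes and all gene lists were chosen with earlier results of these data known. Named from each list were members past the threshold, otherwise the 3 with the largest differences, and preset genes. Some members of the lists are not reported here. Alternatives covered scaling, filter, probe set choice, replicate block, array weights, variance trend, Y-linked covariate and left-out arrays.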

Additional observations from a re-analysis of the deposited data

How the results depend on the processing

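Adjusted over all probe sets, 0 probe sets and 0 receptor genes passed under each of the 17 alternatives. The number of probe sets at an unadjusted p under 0.05 was 1104 in limma, and became 4243 with the replicate block, 4952 with a term for replicate 1, 3052 without both replicate 1 arrays, 3510 with array weights, 687 with the Y-linked covariate and 510 with probe sets of a gene averaged, where fewer features were tested. Leaving out 1 array gave 567 (without pigmented replicate 2) to 1418 (without pigmented replicate 1), with 610 without albino replicate 2. The 1104 held 759 higher and 345 lower probe sets. Median centring gave 486 higher and 1057 lower, and cyclic loess 745 and 717. Signs turned in 13 of 136 receptor differences, a total that includes settings which leave the difference itself unchanged, such as the replicate block. Rara gave 0.055 without both replicate 1 arrays, 0.031 with array weights and -0.15 to 0.02 when 1 array was left out. Rarb gave 0.01 without both replicate 1 arrays, 0.013 with array weights and -0.087 to 0.013 when 1 array was left out. Nr2f1 gave 0.12 to 0.27 and Nr2f2 0.16 to 0.44 when 1 array was left out. Rxra gave -0.18 to 0.083 and Rxrb -0.043 to 0.13 when 1 array was left out. Rxrb also gave -0.033 after median centring and -0.069 with the Y-linked covariate. The cause was not tested. The replicate block changed no call of a receptor gene. Probe sets near the filter, those of Rara and Rxrg among them, are limited by signal over background.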
